A study of Mus musculus with 4 samples.

Results

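The transcripts described here are 9 immediate early genes of the mouse, taken by symbol from both deposited tables: Fos, Fosb, Jun, Junb, Egr1, Ier2, Dusp1, Atf3 and Nr4a1. All 9 were among the 19500 genes listed in both tables. RNA-seq was done on brain, with no region named in the labels, at embryonic day 13 from mice on a C57BL/6 background. The mutant samples carry the label Wt1CKO and are called Wt1_CKO, and the controls, labelled WT with Wt1fl/fl alleles, are called Wt1_flfl. Both genotypes had 2 samples, numbered 1 and 2 in their titles, and each deposited table holds the pair of one number. The Cre driver, the number of animals in a sample and the meaning of the replicate number are not given in the sources used here, so the p-values rest on sample-to-sample spread alone, which may be technical. The Wt1 transcript was not analysed here, and the genotype labels were not checked against it.

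Immediate early genes are transcribed within minutes of a stimulus without new protein synthesis, mainly through serum response factor (SRF) with its ETS partners and through CREB, which the ERK and p38 kinase cascades and calcium activate. Many of their messenger RNAs decay quickly, so their level at harvest follows recent signalling. In the adult brain they are widely used as markers of neuronal activity, and they also rise when tissue is dissociated or stressed. Fos, FosB, Jun, JunB and ATF3 are basic leucine zipper proteins that pair to form the AP-1 transcription factor, Egr1 and Nr4a1 encode a zinc finger factor and an orphan nuclear receptor, Ier2 encodes a nuclear protein of the early serum response, and Dusp1 encodes a phosphatase that switches MAP kinases off. The DNA sequences that EGR1 binds are GC-rich and resemble those of WT1.

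The proximal promoters of abundant members (Jun, Dusp1), a middle one (Nr4a1) and scarce ones (Fos, Fosb) are shown because they carry the capital letters described below. RefSeq promoter windows on GRCm38.p6 matched 7 of the 9 members by symbol, and Egr1 and Ier2 had no entry. The sequences cover the 250 bases before the transcription start, without bases that lie in an annotated exon, 5′ to 3′ on the strand of the gene. Capitals mark letters of the cyclic AMP response element or like it. They are the half-site TGACG or its complement CGTCA, or the longer form TGACNTCA, which contains the half-site when N is G. In Jun the capitals are TGACATCA, which does not contain the half-site and is only like that element.
Jun (GRCm38.p6, chr4:95052223-95052472, minus strand): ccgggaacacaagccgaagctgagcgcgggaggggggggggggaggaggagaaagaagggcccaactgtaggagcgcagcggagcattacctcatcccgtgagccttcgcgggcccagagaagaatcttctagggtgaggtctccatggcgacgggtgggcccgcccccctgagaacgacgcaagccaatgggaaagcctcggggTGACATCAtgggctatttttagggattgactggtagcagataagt
Dusp1 (GRCm38.p6, chr17:26508520-26508722, minus strand): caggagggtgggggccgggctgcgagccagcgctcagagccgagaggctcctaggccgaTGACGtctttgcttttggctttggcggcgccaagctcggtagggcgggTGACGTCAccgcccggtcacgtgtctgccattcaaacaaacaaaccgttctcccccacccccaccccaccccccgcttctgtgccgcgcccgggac
Nr4a1 (GRCm38.p6, chr15:101266596-101266845, plus strand): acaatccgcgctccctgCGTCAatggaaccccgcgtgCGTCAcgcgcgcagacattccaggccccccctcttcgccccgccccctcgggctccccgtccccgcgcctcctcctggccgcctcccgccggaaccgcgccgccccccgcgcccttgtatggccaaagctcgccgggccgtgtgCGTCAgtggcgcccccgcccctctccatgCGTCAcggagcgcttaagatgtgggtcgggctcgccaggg
Fos (GRCm38.p6, chr12:85473640-85473889, plus strand): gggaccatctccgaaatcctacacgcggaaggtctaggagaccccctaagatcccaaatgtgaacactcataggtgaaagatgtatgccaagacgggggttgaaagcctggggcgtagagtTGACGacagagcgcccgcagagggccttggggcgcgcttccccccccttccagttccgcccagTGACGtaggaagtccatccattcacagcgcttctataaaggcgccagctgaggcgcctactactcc
Fosb (GRCm38.p6, chr7:19310052-19310295, minus strand): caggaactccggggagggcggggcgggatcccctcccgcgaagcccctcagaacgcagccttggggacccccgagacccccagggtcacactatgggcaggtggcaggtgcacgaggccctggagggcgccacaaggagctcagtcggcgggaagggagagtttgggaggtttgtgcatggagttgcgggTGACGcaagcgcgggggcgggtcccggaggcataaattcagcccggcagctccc

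Motifs were counted in the whole 250 bases before the start, exon bases included. The half-site was found on either strand in 6 of the 7 member windows and in 17.8% of 32851 windows of all genes, which include several windows for some genes. In Atf3 the only copy, from base 7 to base 3, lay in bases that an annotated exon covers. Nr4a1 had 4 separate copies, the outermost from base 233 to base 229 before the start and the nearest from base 40 to base 36. Fos had 2 copies, the nearer from base 66 to base 62, and Fosb had 1, from base 60 to base 56. The form TGACNTCA was found in 2 member windows, in Jun from base 45 to base 38 and in Dusp1 from base 143 to base 136, against 7.49% of all windows. The CArG box, the SRF site, was in 0 of the 7 and in 1.47% of all windows, and the AP-1 letters TGANTCA in 0 of the 7 and in 6.75%. The CArG search took only the exact form of CC, 6 letters A or T, and GG. The AP-1 search took only the exact letters TGANTCA, so other forms were not counted as AP-1 sites. Sites farther than 250 bases before the start, or at Egr1 and Ier2, were not searched, so these genes may have SRF sites elsewhere. The letters TATAAA were in 1 member window, that of Fos, from base 33 to base 28, and in 12.4% of all windows. These matches describe letters in a short window and do not show that a factor binds there.

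The 2 Wt1_CKO libraries held 17704698 and 17159450 counts over the listed genes, and the 2 Wt1_flfl libraries 16219310 and 17170578 counts. The 9 markers of brain progenitors and neurons used here, such as Sox2 and Tubb3, were detected in every library and summed to between 5363 and 5573 CPM, with Tubb3 the largest contributor. CPM here are counts relative to library sizes scaled by the TMM method. Wt1_CKO replicate 1 stood apart from the other 3 libraries with 4 counts of the X-inactivation RNA Xist, which had 13086 to 16472 counts in the others, and Wt1_flfl replicate 1 stood apart with 74251 counts of the ribosomal RNA gene CT010467.1, against 3058 to 7902 in the others. No member passed the threshold with all libraries. Leaving out 1 library leaves 1 sample in a group, which cannot decide whether the libraries that stood apart affected the comparisons. Neither feature was a term in the main fits.

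Levels of the members spread over 3 orders of magnitude when the CPM were divided by the length of the gene's merged exons. Jun was the most abundant at 31.9 ± 3.73 CPM per kb (SD over the 4 libraries), above 89.4% of the protein-coding genes listed in both tables. Ier2 followed at 15.7 ± 3.06 CPM per kb and Dusp1 at 14.1 ± 1.65 CPM per kb, and the ranges of these neighbours over the libraries, 12.8 to 19.9 and 11.7 to 15.6, overlapped. Nr4a1 had 2.69 ± 0.523 CPM per kb and Junb 2.01 ± 0.216 CPM per kb, again with overlapping ranges. Fos, at 0.424 ± 0.0354 CPM per kb, and Egr1, at 0.398 ± 0.122 CPM per kb, could not be told apart and lay above 16.9% and 16.4% of protein-coding genes. Atf3 had 0.198 ± 0.0665 CPM per kb and Fosb 0.0192 ± 0.0145 CPM per kb, the level of 1 to 4 counts a library. Over the libraries, ranges did not overlap between Jun and Ier2, Dusp1 and Nr4a1, Junb and Fos, Egr1 and Atf3, or Atf3 and Fosb.

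**Figure D1:**
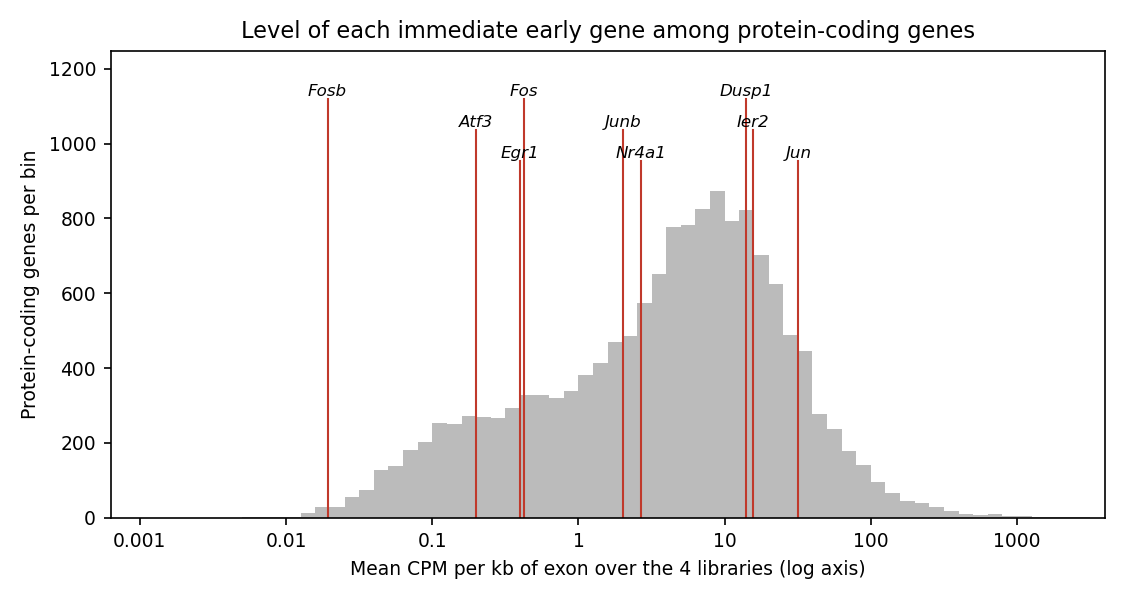
Mean CPM per kb of exon over the 4 libraries for each immediate early gene (red lines, log axis), on the number of protein-coding genes per bin of level (grey). Jun lies at 31.9, Ier2 and Dusp1 at 15.7 and 14.1, and Fos, Egr1, Atf3 and Fosb at 0.424, 0.398, 0.198 and 0.0192, in the low part of the distribution.

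Jun, Dusp1 and Ier2 together made up 91.7% and 91.7% of the summed CPM per kb of the 9 genes in Wt1_CKO replicates 1 and 2, and 91.6% and 91.0% in Wt1_flfl replicates 1 and 2. The level of Jun was 65.4 and 82.6 times that of Fos in the Wt1_CKO libraries and 66.5 and 87.6 times in the Wt1_flfl libraries, with 15 to 18 counts of Fos behind each ratio. Lengths came from GENCODE vM21, and those of Dusp1 and Nr4a1 belong to gene models that differ from the deposited positions. In bulk tissue, a gene read in few cells and a gene read weakly in many cannot be told apart.

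AP-1 dimers always contain a basic leucine zipper partner and are most often formed of a FOS and a JUN protein. Between the FOS and JUN families, the JUN family predominated at the RNA level. Other AP-1 and ATF partners were not part of these shares. Jun held 66.2% and 65.8% of the CPM per kb of Jun, Junb and Jund in the Wt1_CKO libraries and 64.4% and 56.6% in the Wt1_flfl libraries. Jund, which is expressed in most cells without a stimulus, held 28.9% and 31.2% in Wt1_CKO and 30.9% and 39.8% in Wt1_flfl, and Junb under 5% in every library. Fos, Fosb, Fosl1 and Fosl2 together held 7.02% and 5.21% of the CPM per kb of both families in Wt1_CKO and 5.26% and 4.28% in Wt1_flfl. Fosl1, which encodes FRA1 and is named here after its values were seen, held 62.1% and 68.9% of the FOS family in Wt1_CKO and 63.0% and 74.7% in Wt1_flfl. Fos itself held 13.4% and 14.5% in Wt1_CKO and 17.5% and 14.4% in Wt1_flfl. In both genotypes, Fosl1 therefore exceeded Fos per length in each library.

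**Figure D2:**
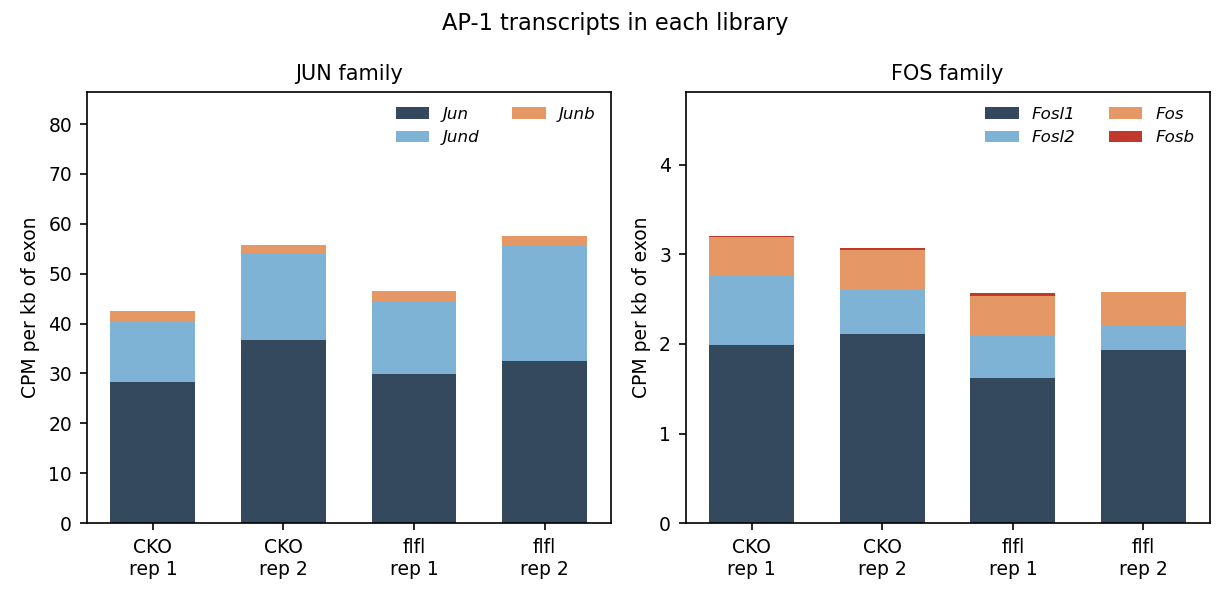
CPM per kb of exon of the JUN family (left) and the FOS family (right), stacked by gene, in the 2 Wt1_CKO and the 2 Wt1_flfl libraries. The 2 panels have different vertical scales, and the FOS family amounts to 4.28% to 7.02% of both families together.

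The comparison of genotypes asked whether these transcripts differed between Wt1_CKO and Wt1_flfl brain. Fosb and Atf3 had too few counts for the test, so 7 of the 9 members were tested among 15933 genes. None of the 7 passed a Benjamini-Hochberg adjusted p of 0.05 in edgeR's quasi-likelihood test, where 1 of the 15933 genes did (0.00628%). None of the 7 had an unadjusted p under 0.05 in edgeR, DESeq2 or limma-voom, and DESeq2 and limma-voom called 0. The median log2 difference of the 7 members was -0.20, against 0.01 over all genes tested. Of the 7, 3 (Junb, Ier2 and Dusp1) were lower in Wt1_CKO in both pairs, against 25.9% of all genes tested, and 0 were higher in both, against 27.0%. Without 1 library their log2 fold changes came as near to 0 as -0.04 for Junb, -0.01 for Ier2 and -0.05 for Dusp1. The sign of Fos, Jun, Egr1 and Nr4a1 turned when 1 library was left out. Only Junb had groups that did not overlap, lower in Wt1_CKO, which is 1 of 7 (14.3%) against 13.5% of all genes tested, and 0 of 7 were higher without overlap against 13.4%.

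Among the AP-1 genes, Jun (ENSMUSG00000052684, chromosome 4, 95049034 to 95052222, GRCm38) had 1597 and 2016 counts in Wt1_CKO replicates 1 and 2 and 1532 and 1781 counts in Wt1_flfl replicates 1 and 2. The groups overlapped, with 103 ± 19.3 CPM in Wt1_CKO and 99.7 ± 6.14 CPM in Wt1_flfl (SD, n = 2 each). The edgeR log2 fold change was 0.05 with an adjusted p of 1, and the limma-voom 95% interval ran from -0.32 to 0.40. An antisense gene, Junos, overlaps 689 bases of Jun, and its 13 to 25 counts a library are few beside those of Jun. Junb (ENSMUSG00000052837, chromosome 8, 84974484 to 84978718), another JUN protein, had 85 and 67 counts in Wt1_CKO and 80 and 83 counts in Wt1_flfl. Both Wt1_CKO libraries lay below both Wt1_flfl libraries, at 4.33 ± 0.627 CPM against 4.92 ± 0.0927 CPM (SD, n = 2 each), and 351 bases of Junb overlap Prdx2, a peroxiredoxin gene on the opposite strand with 9983 to 11608 counts a library. The edgeR log2 fold change of Junb was -0.18 with an adjusted p of 1, and the limma-voom interval ran from -0.80 to 0.43. The libraries' strandedness is not given in the sources used here, so reads in these overlaps cannot be assigned.

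Fos (ENSMUSG00000021250, chromosome 12, 85473890 to 85477273) had 18 and 18 counts in the Wt1_CKO libraries and 17 and 15 counts in the Wt1_flfl libraries. The groups overlapped, and the edgeR log2 fold change was 0.09 with an adjusted p of 1. At this depth the limma-voom interval, unadjusted for the number of genes, ran from -0.92 to 1.10, so changes of either sign within it remain compatible with the data. Fosb (ENSMUSG00000003545, chromosome 7, 19302696 to 19310051), the closest relative of Fos, had 1 and 2 counts in Wt1_CKO and 4 and 1 counts in Wt1_flfl. The ratio of its summed, scaled counts, Wt1_CKO over Wt1_flfl, was 0.568 with an exact 95% counting interval from 0.0883 to 2.92. Atf3 (ENSMUSG00000026628, chromosome 1, 191170296 to 191218039), a stress-induced repressor in many cell types, had 10 and 4 counts in Wt1_CKO and 8 and 7 counts in Wt1_flfl. Its ratio was 0.884 with an interval from 0.395 to 1.96, and both intervals cover counting error only.

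Egr1 (ENSMUSG00000038418, chromosome 18, 34859823 to 34864984) had 26 and 30 counts in the Wt1_CKO libraries and 22 and 44 counts in the Wt1_flfl libraries. The Wt1_flfl libraries held both the lowest and the highest value, with 1.60 ± 0.198 CPM in Wt1_CKO and 1.97 ± 0.850 CPM in Wt1_flfl (SD, n = 2 each). The edgeR log2 fold change of -0.30 had an adjusted p of 1, and the limma-voom interval from -1.28 to 0.79 was the widest of the 7. Within pairs, the log2 difference of Egr1 was 0.09 for replicate 1 and -0.53 for replicate 2. Nr4a1 (ENSMUSG00000023034, chromosome 15, 101266846 to 101274792) had 121 and 188 counts in Wt1_CKO and 154 and 178 counts in Wt1_flfl. Here the Wt1_CKO libraries held both extremes, with 8.86 ± 2.91 CPM in Wt1_CKO and 10 ± 0.575 CPM in Wt1_flfl (SD, n = 2 each). The edgeR log2 fold change of Nr4a1 was -0.17 with an adjusted p of 1, and the pairs gave -0.49 for replicate 1 and 0.07 for replicate 2.

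Ier2 (ENSMUSG00000053560, chromosome 8, 84661331 to 84662852) had 423 and 335 counts in the Wt1_CKO libraries and 487 and 374 counts in the Wt1_flfl libraries. It was lower in Wt1_CKO in both pairs, by log2 differences of -0.35 and -0.17, but the groups overlapped because the replicate 2 libraries were lower in both genotypes. Ier2 averaged 21.6 ± 3.06 CPM in Wt1_CKO and 26.1 ± 5.99 CPM in Wt1_flfl (SD, n = 2 each), with an edgeR log2 fold change of -0.27, an adjusted p of 1 and a limma-voom interval from -0.75 to 0.24. Dusp1 (ENSMUSG00000024190, chromosome 17, 26505590 to 26508519) had 692 and 830 counts in Wt1_CKO and 766 and 885 counts in Wt1_flfl. It was also lower in Wt1_CKO in both pairs, by -0.29 and -0.10, with overlapping groups of 43.5 ± 6.58 CPM and 49.7 ± 2.84 CPM (SD, n = 2 each). The edgeR log2 fold change of Dusp1 was -0.19 with an adjusted p of 1, and its limma-voom interval from -0.55 to 0.15 was the narrowest of the 7.

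**Figure D3:**
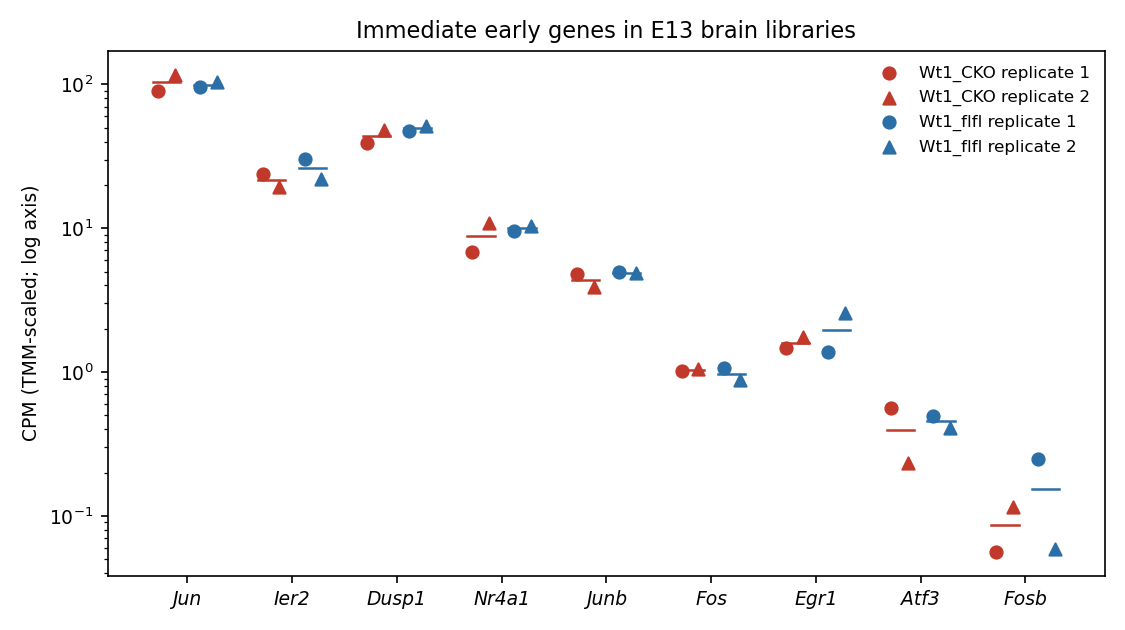
CPM (TMM-scaled, log axis) of each immediate early gene in the 2 Wt1_CKO libraries (red) and the 2 Wt1_flfl libraries (blue), circles for replicate 1 and triangles for replicate 2, with a line at each group's mean. The genes are ordered by CPM per kb, and Junb alone has both Wt1_CKO points below both Wt1_flfl points.

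The authors' own comparisons of 1 library with 1 library marked none of the 9 genes as significant in either pair. In the authors' deposited table for pair 1, the adjusted p was 0.00177 for Dusp1 with a log2 fold of -0.27, Wt1_CKO over Wt1_flfl, and 0.00305 for Ier2 with -0.33. In the authors' deposited table for pair 1, Nr4a1 had a log2 fold of -0.47 and an adjusted p of 0.0235. In the authors' deposited table for pair 2, Jun had a log2 fold of 0.18 and an adjusted p of 0.00113, and Dusp1, Ier2 and Nr4a1 had adjusted p of 0.299, 0.256 and 0.560. The authors' unadjusted p of Nr4a1 in pair 2 was 0.597, above its deposited adjusted p. A Benjamini-Hochberg value cannot lie below its p, so the deposited adjusted p are not like those computed here. The authors' mark did not follow an adjusted p under 0.05 alone. The deposited values compare libraries and not genotypes.

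The same libraries were then compared by replicate number, which the titles give and no label explains. This comparison held more differences across the transcriptome, with 313 of 15933 genes (1.96%) past an adjusted p of 0.05 in edgeR, yet none of the 7 members was among them. Jun and Ier2 were the 2 members with an unadjusted p under 0.05 in edgeR, and DESeq2 and limma-voom called 0 of the 7 with 2 unadjusted. Of the 7, 4 (57.1%) were higher in replicate 2 without overlap, against 24.7% of all genes tested, and 1 (14.3%) was lower without overlap, against 25.0%. The median log2 difference of the 7 was 0.21, against 0.00 over all genes tested.

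Jun had 117 and 104 CPM in replicate 2 of Wt1_CKO and Wt1_flfl, against 89.8 and 95.4 CPM in replicate 1. Both replicate 2 libraries were above both replicate 1 libraries, with an edgeR log2 fold change of 0.26, a p of 0.0249 and an adjusted p of 0.207. Ier2 went the other way, with 19.5 and 21.9 CPM in replicate 2 of Wt1_CKO and Wt1_flfl, against 23.8 and 30.3 CPM in replicate 1. The edgeR log2 fold change of Ier2 was -0.39, with a p of 0.0303 and an adjusted p of 0.227. The limma-voom intervals were 0.04 to 0.47 for Jun and -0.72 to -0.03 for Ier2, unadjusted for the number of genes.

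Nr4a1 had 10.9 and 10.4 CPM in replicate 2 of Wt1_CKO and Wt1_flfl, against 6.80 and 9.59 CPM in replicate 1, with an edgeR log2 difference of 0.38 and an adjusted p of 0.368. Dusp1 had 48.2 and 51.7 CPM in replicate 2, against 38.9 and 47.7 CPM in replicate 1, with an edgeR log2 difference of 0.21 and an adjusted p of 0.406. Egr1 had 1.74 and 2.57 CPM in replicate 2, against 1.46 and 1.37 CPM in replicate 1, with an edgeR log2 difference of 0.60 and an adjusted p of 0.421. In each of these 3 genes the groups did not overlap, and for Nr4a1 the distance was mostly that of Wt1_CKO, with log2 differences of 0.67 in Wt1_CKO and 0.12 in Wt1_flfl. Junb and Fos overlapped between the numbers, with edgeR log2 fold changes of -0.16 and -0.11 and adjusted p of 0.772 and 0.925. Atf3, which was not tested, had 4 and 7 counts in replicate 2, against 10 and 8 counts in replicate 1, and the ratio of its scaled sums was 0.603 with a counting interval from 0.257 to 1.35. For Fosb the ratio was 0.592, from 0.0919 to 3.04.

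**Figure D4:**
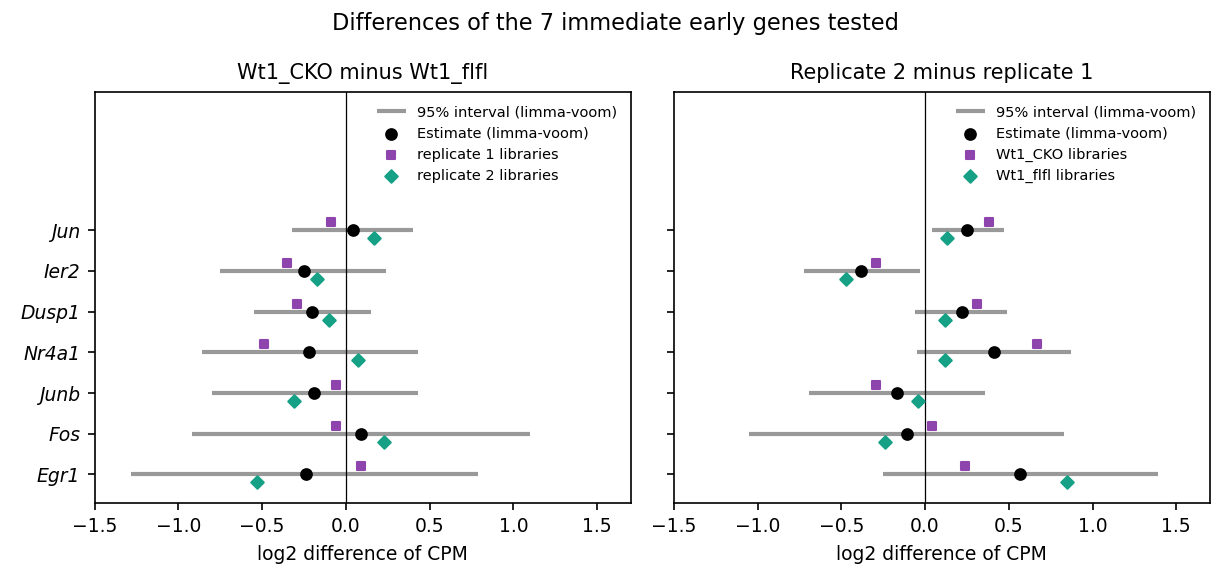
log2 differences of CPM for the 7 tested genes, Wt1_CKO minus Wt1_flfl (left) and replicate 2 minus replicate 1 (right), with limma-voom estimates (black), their 95% intervals (grey) and the differences between single libraries (coloured). On the left all 7 intervals include 0, and on the right those of Jun (0.04 to 0.47) and Ier2 (-0.72 to -0.03) do not, before adjustment.

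Markers of brain cells and of other cell types differed between the numbers too. Of the 9 brain markers, edgeR called 1 higher and 2 lower in replicate 2, against 1.96% of all genes tested. Nes, the intermediate filament gene of neural progenitors, had 817 and 782 CPM in replicate 2 of Wt1_CKO and Wt1_flfl, against 521 and 466 CPM in replicate 1 (log2 difference 0.70, edgeR adjusted p 0.0141). Neurod1, a proneural transcription factor gene, had 34.6 and 29.0 CPM in replicate 2, against 59.1 and 62.8 CPM in replicate 1 (log2 difference -0.94, edgeR adjusted p 0.00873). Tbr1, a transcription factor gene of early cortical neurons, had 264 and 260 CPM in replicate 2, against 356 and 345 CPM in replicate 1 (log2 difference -0.42, edgeR adjusted p 0.0461). The 10 red cell markers, all detected in every library, summed to 1807 and 1861 CPM in replicate 2 of Wt1_CKO and Wt1_flfl, against 915 and 973 CPM in replicate 1, and edgeR called 5 of the 10 higher in replicate 2. The 10 meningeal and mesenchymal markers summed to 114 and 155 CPM in replicate 2, against 93.7 and 99.0 CPM in replicate 1, with 1 of 9 tested called higher. The gene called, Igf2, was the largest contributor to the sum in each library. It had 58.5 and 66.7 CPM in replicate 2, against 37.9 and 42.8 CPM in replicate 1 (log2 difference 0.63, edgeR adjusted p 0.0268). Of the 9 tested, 5 were higher in replicate 2 without overlap, against 24.7% of all genes tested, and 0 were lower without overlap. The sum therefore does not show that all these markers rose together. The 10 endothelial markers summed to 164 and 177 CPM, against 150 and 169 CPM, and the 10 microglial markers to 41.3 and 44.5 CPM, against 45.3 and 44.7 CPM, with 0 called in either list. None of the markers listed was at 0 in a library. The part of these cells in the differences between numbers was not tested. Of 10 choroid plexus markers 9 were listed in both tables, and their sums of 32.6 and 56.4 CPM in replicate 2 and 68.2 and 25.7 CPM in replicate 1 followed neither number nor genotype.

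Related genes were described from lists chosen with earlier results of these data known. Of 16 other rapid response transcription factors, 14 were listed in both tables and tested, and 0 passed edgeR's test between genotypes, with 0 unadjusted p under 0.05. Fosl2, which encodes the AP-1 protein FRA2, had the smallest p, with 7.53 and 4.76 CPM in the Wt1_CKO libraries and 4.48 and 2.63 CPM in the Wt1_flfl libraries, an edgeR log2 difference of 0.79 and an adjusted p of 1. Of 24 feedback and effector genes 0 passed between genotypes, and 1, Dusp4, had an unadjusted p under 0.05. Dusp4, a nuclear MAP kinase phosphatase related to Dusp1, had 87.5 and 106 CPM in Wt1_CKO and 73.2 and 79.6 CPM in Wt1_flfl, an edgeR log2 difference of 0.34 and an adjusted p of 1. The 23 genes of the SRF, CREB and ERK inputs, the 13 tested AP-1 and ATF partners and the 14 tested heat shock and stress genes gave 0 calls and 0 unadjusted p under 0.05 between genotypes in edgeR. Their median log2 differences were 0.00, -0.05 and 0.01, against 0.01 over all genes tested, and those of the transcription factors and the feedback genes were 0.01 and -0.03. The heat shock genes Hspa1a and Hspa1b rise strongly in stressed cells and had few counts. They are near-identical copies whose reads may be split or left uncounted, so the counts may understate their RNA. Hspa1a (named after its values were seen) had 1 and 2 counts in Wt1_CKO and 5 and 5 in Wt1_flfl. For Hspa1b the counts were 19 and 15 in Wt1_CKO and 28 and 27 in Wt1_flfl.

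Between the numbers, 3 genes of these lists passed edgeR's test, all lower in replicate 2. Nr4a3, a nuclear receptor closely related to Nr4a1, fell to 4.53 and 6.08 CPM in replicate 2 of Wt1_CKO and Wt1_flfl, against 16.5 and 10.9 CPM in replicate 1, an edgeR log2 difference of -1.37 at an adjusted p of 0.0287. Without Wt1_CKO replicate 1 its log2 difference was -1.04 and its edgeR adjusted p 0.170. Nr4a3 and Nr4a1 thus had differences of opposite sign, the second not past the threshold. Rps6ka5, which encodes MSK1, a kinase that phosphorylates CREB and histone H3 at early genes, fell to 17.5 and 19.1 CPM in replicate 2, against 32.8 and 29.1 CPM in replicate 1, an edgeR log2 difference of -0.76 at an adjusted p of 0.0264. Hspa8, a constitutive HSP70 chaperone, fell to 1341 and 1424 CPM in replicate 2, against 2028 and 2014 CPM in replicate 1, an edgeR log2 difference of -0.55 at an adjusted p of 0.0234. Without Wt1_CKO replicate 1 or without Wt1_flfl replicate 1, the edgeR adjusted p was 0.149 and 0.0625 for Rps6ka5 and 0.106 and 0.0775 for Hspa8, while the log2 differences were -0.67 and -0.84 for Rps6ka5 and -0.54 and -0.55 for Hspa8.

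Klf2, a zinc finger gene that is high in endothelium, had 6.62 and 7.71 CPM in replicate 2 of Wt1_CKO and Wt1_flfl, against 3.15 and 3.80 CPM in replicate 1, with a log2 fold change of 1.05 and no call by edgeR at an adjusted p of 0.0541. Jund had 29.0 and 38.3 CPM in replicate 2, against 20.5 and 24.0 CPM in replicate 1, with an edgeR log2 difference of 0.60 and an adjusted p of 0.0895. Srf itself had 54.2 and 64.6 CPM in replicate 2, against 46.7 and 50.9 CPM in replicate 1, with an edgeR adjusted p of 0.236. Among the feedback genes the smallest p was that of Ier5, a relative of Ier2, which like Ier2 had its lower values in replicate 2, at 76.2 and 61.2 CPM against 91.3 and 94.0 CPM in replicate 1, with an edgeR adjusted p of 0.0907. By list, edgeR called between the numbers 1 of 14 transcription factors, 0 of 24 feedback genes, 1 of 23 inputs, 0 of 13 partners and 1 of 14 heat shock genes, where 1.96% of all genes tested were called.

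Centred on each gene's own mean, the log2 CPM of the 7 tested members averaged -0.14 and 0.01 in the Wt1_CKO libraries and 0.03 and 0.10 in the Wt1_flfl libraries (replicates 1 and 2). The Euclidean distance of a member from this mean ran from 0.13 for Dusp1 to 0.57 for Egr1, where the median over the 10039 genes that averaged 10 CPM or more was 0.28. Fos and Junb (0.32 each), Nr4a1 (0.38), Ier2 (0.51) and Egr1 lay farther from the mean than that median. Of these, Fos, Junb, Nr4a1 and Egr1 averaged under 10 CPM themselves, so that median is not a like comparison for them. The mean profile does not stand for each member. The 10 genes nearest to the mean profile were Ttll12, Rbck1, Robo1, Adipor1, Stip1, Hnrnpd, Inpp5b, Scfd2, Slc27a4 and Wdtc1, at distances from 0.009 to 0.033 over 4 libraries. The log2 range over the 4 libraries had a median of 0.41 for the 7 tested members, against 0.38 over all genes tested.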

How the data were processed

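Libraries were made from mRNA selected by oligo(dT) and reverse transcribed from random primers, per the labels' protocols. The submitters' processing notes name HTSeq 0.6.0, TopHat2 2.0.12 and Bowtie2 2.2.3, with mm9 as build. Positions in the deposited tables matched GENCODE vM21 on GRCm38 for 7 of the 9 members and 91.5% of 19462 genes, so they are given on GRCm38. Per the file headers each table holds whole-number counts per gene for 2 libraries. The deposited CPM are these counts over a library total, with 0 entered as 0.5. The deposited fold ratio, its log2 and the p-values are the authors' comparisons of single libraries, and which test they used is not stated in the labels or headers. The counts of genes in both tables were tested here with edgeR 4.0.16 in R 4.3.3 (TMM, filterByExpr with a minimum count of 10, quasi-likelihood F test, Benjamini-Hochberg adjustment over all genes, threshold 0.05), once for genotype and once for replicate number, with no other term, and the method was tested on simulated data. Differences within pairs use log2 CPM (prior count 2). Intervals come from limma 3.58.1 (voom) or, for sums of counts, from Clopper-Pearson limits. These limits cover counting error only and leave out the spread between libraries. PCR copies were counted without molecular identifiers, so the limits may be too narrow even for counting error. Alternatives were a replicate block, each library left out, other scalings and filters, DESeq2 1.42.0 and limma-voom. The members and lists were chosen with earlier results of these data known. The text names all members, up to 4 genes of each other list with the smallest p in either comparison, and the 10 genes nearest to the members' mean profile. A gene of the brain marker list is not reported here and was left out of its sum.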

Additional observations from a re-analysis of the deposited data

Results flagged for a closer look

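Between replicate 2 and replicate 1, Fos and Fosb had differences of opposite sign in the 2 genotypes, each from 1 library against 1 library, and the difference was not tested. For Fos the log2 difference was 0.04 in Wt1_CKO and -0.24 in Wt1_flfl, 0.28 apart, from 18 and 15 counts in replicate 2 and 18 and 17 counts in replicate 1. For Fosb it was 0.43 in Wt1_CKO and -1.06 in Wt1_flfl, 1.49 apart, from 2 and 1 counts in replicate 2 and 1 and 4 counts in replicate 1.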

How the results depend on the processing

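No member passed the threshold in either comparison under any of the 11 alternatives, and the lowest adjusted p was 0.733 between genotypes and 0.105 between numbers. Of the 14 member differences, 9 kept their direction, but without 1 library some came near 0: between genotypes -0.01 for Ier2, -0.04 for Junb and -0.05 for Dusp1, and between numbers -0.01 for Junb, 0.07 for Dusp1 and 0.15 for Nr4a1. The others turned between genotypes without Wt1_flfl replicate 2 (Fos -0.04, Egr1 0.22), without Wt1_CKO replicate 2 or Wt1_flfl replicate 1 (Jun -0.15 and -0.01) and without Wt1_CKO replicate 1 (Nr4a1 0.13), and between numbers without Wt1_flfl replicate 2 (Fos 0.01). The cause was not tested. Without 1 library their log2 fold changes ran from -0.04 to 0.23 for Fos, -0.15 to 0.23 for Jun, -0.68 to 0.22 for Egr1 and -0.55 to 0.13 for Nr4a1 between genotypes and from -0.24 to 0.01 for Fos between numbers. Over all genes, the count of calls between genotypes was 1, 42 with the replicate block, 5 with DESeq2 and 3 to 73 without 1 library (73 without Wt1_flfl replicate 1). Between numbers it was 313, 1138 with the replicate block, 578 with DESeq2, 197 with no low-count filter and 71 to 940 without 1 library (71 without Wt1_CKO replicate 1, 132 without Wt1_flfl replicate 1, 940 without Wt1_CKO replicate 2). Same-numbered libraries deviated together with a correlation of 0.28 across genes, from 2 pairs, and no label says that the number marks a pairing. With 15 to 44 counts of Fos and Egr1 and 1 to 10 of Fosb and Atf3 a library, only large changes of these genes were detectable.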
